A study of Mus musculus with 6 samples.

Results

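Transcripts of 10 genes for claudins and other membrane proteins of tight junctions were measured in newborn mouse epidermis with and without Znf750, a zinc finger protein that acts in the terminal differentiation of keratinocytes. The members were chosen by name: Cldn1, Cldn3, Cldn4, Cldn6, Cldn7, Cldn8, Cldn12, Cldn23, Ocln and F11r. All 10 were found among the 55487 genes of the deposited tables, and 8 of them passed the filter on low values and were tested together with all other genes that passed, 13688 in all. The 6 libraries comprised 3 labelled Znf750 cKO and 3 labelled Control, each of epidermal cells from back skin at postnatal day 0, with no agent named for either group. The sources used here do not give the alleles, the driver of the deletion, the strain or whether each library came from its own pup, so p-values measure only the spread between these libraries. No cell sort is named, so the libraries hold all cells of the epidermal suspension.

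Tight junctions seal the space between neighbouring epithelial cells, and in epidermis they lie in the granular layer, beneath the cornified layer. Claudins cross the membrane several times and meet claudins of the next cell, and the set of claudins present decides which ions and small molecules pass. Occludin belongs to the same strands, F11r (also called JAM-A) is an immunoglobulin-like adhesion protein beside them, and plaque proteins such as ZO-1 tie them to actin. Mice that lack Cldn1 lose water through the skin and die soon after birth.

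The values are FPKM, a fragment count scaled for transcript length and for library size, which can be set side by side between genes. An estimated 22900000 to 35400000 reads lay behind the Znf750 cKO libraries and 21400000 to 28300000 reads behind the Control libraries, from the size of the steps between low FPKM values. The targeted gene, Zfp750 (the mouse symbol of Znf750), stood at 0.99, 0.83 and 1.47 FPKM in Znf750 cKO against 44.82, 32.02 and 34.94 FPKM in Control. Its groups lay far apart (log2 change -4.19, SE 0.17, limma adjusted p = 4.6e-05). As a check of the tissue label, 11 genes of the granular layer were read, and all 11 passed the filter. They summed to 5040 to 6050 FPKM in Znf750 cKO and 5520 to 9280 FPKM in Control. Krt2, which the sums include, passed the filter through Znf750 cKO alone, at 171.69 to 333.92 FPKM against 0.20 to 0.30 FPKM in Control. It is therefore no check of the label in Control. Of these 11, Ivl and Krt2 rose, Casp14 fell and 8 did not pass, where 1.11% of all tested genes rose and 3.1% fell. The groups did not overlap in 6 of the 11, against 28% of all tested genes. Among the 8, Flg, Flg2 and Cdsn were lower in each Znf750 cKO library than in any Control library (limma adjusted p = 0.10, 0.20 and 0.12). The Ivl call ended under the replicate block (limma adjusted p = 0.058) and without Znf750 cKO replicate 1 or 2 or Control replicate 1 or 3 (0.050 to 0.086), and the Casp14 call without Znf750 cKO replicate 1 or 2 or Control replicate 1 (0.070 to 0.082). Of the markers of other cells, 0 of 6 tested melanocyte and 3 tested fibroblast genes passed (limma, 0 at an unadjusted p under 0.05). Krt79, Krt71 and Krt27 fell among 7 tested sebaceous and hair genes, where 3.1% of all tested genes fell. Krt79 kept its call in only 1 and Krt71 in 5 of the 6 fits with a library left out. Krt71 and Krt27 passed the filter through Control alone, since both stayed under 1 FPKM in every Znf750 cKO library. The list summed to 145 to 180 FPKM in Znf750 cKO against 279 to 462 FPKM in Control.

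Cldn7 and Cldn4 rose in Znf750 cKO epidermis and no member fell. The 2 that rose are 2 of the 8 tested members, where 4.22% of all tested genes passed, 1.11% by rising and 3.1% by falling (limma with Benjamini-Hochberg adjustment over all tested genes, adjusted p under 0.05). Changes are differences of log2(FPKM + 1), which understate the change of genes with low levels. Positive log2 changes were found in 6 of the 8 tested members, against 37.8% of all tested genes, and the median was 0.20 in the members and -0.08 over all of them. The groups did not overlap in 4 of the 8, against 28% of all tested genes. Znf750 cKO was above in Cldn7, Cldn4 and F11r (8.28% of all tested genes) and below in Cldn23 (19.7%). The same 4 members had an unadjusted limma p under 0.05, as did 21.3% of all tested genes, and of these Cldn23 alone was negative.

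**Figure D1:**
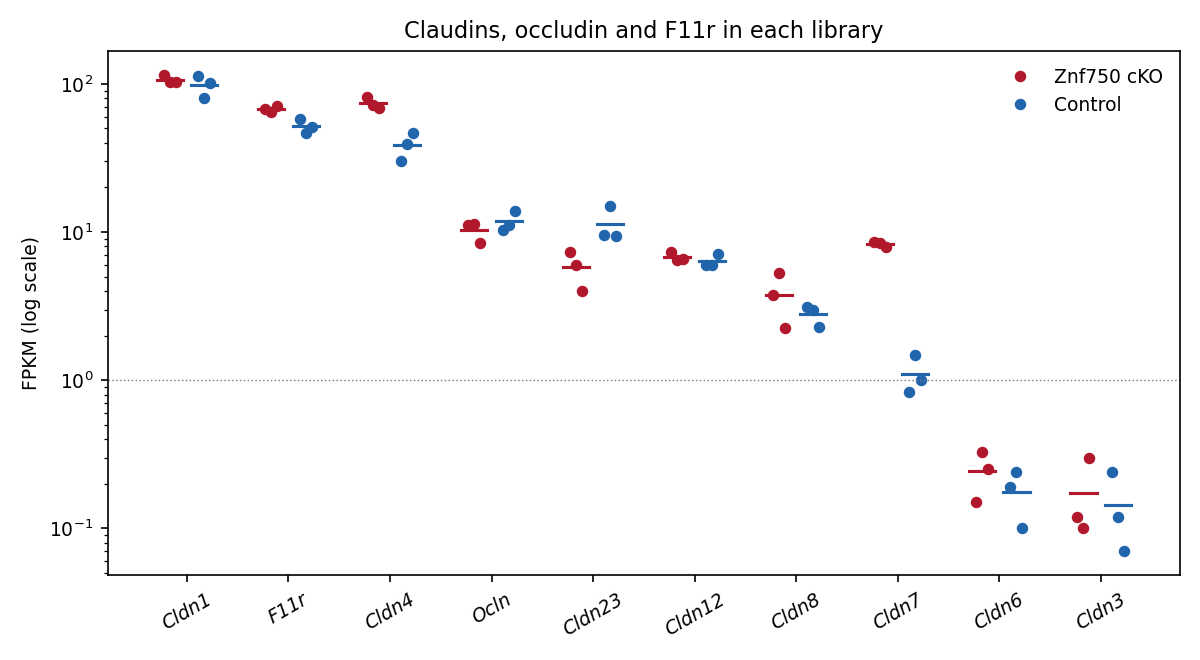
Level of each of the 10 members in each library, in FPKM on a log axis, with Znf750 cKO in red and Control in blue, a horizontal bar at each group mean and a dotted line at 1 FPKM. Cldn7 lies at 7.96 to 8.50 FPKM in Znf750 cKO and 0.83 to 1.47 FPKM in Control, while Cldn1 overlaps between the groups near the top of the range.

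Cldn7, a claudin that elsewhere is known from the lateral membrane of simple epithelia such as gut and kidney tubule, showed the widest difference of the members. It stood at 8.50, 8.47 and 7.96 FPKM in Znf750 cKO against 0.83, 1.47 and 1.01 FPKM in Control. The Znf750 cKO libraries were nearly equal, with a coefficient of variation of 3.65%, and each lay far above the highest Control library. The means were 8.31 ± 0.30 FPKM in Znf750 cKO and 1.10 ± 0.33 FPKM in Control (SD, n = 3 each), a 7.53-fold difference. The log2 change was 2.16 (SE 0.16, 95% interval 1.79 to 2.53, limma adjusted p = 0.00083). It ranked 16 of 13688 tested genes from the highest change. Cldn7 passed whichever of the 6 libraries was left out, and with the replicate number as a block (limma adjusted p = 0.013).

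Cldn4, a claudin of the granular layer that limits the passage of sodium in kidney cells, also rose. It stood at 80.93, 71.75 and 68.59 FPKM in Znf750 cKO against 30.18, 39.42 and 46.86 FPKM in Control. The lowest Znf750 cKO library was higher than the highest Control library, and Control replicate 1 was the lowest of the 6. The means were 73.8 ± 6.4 FPKM in Znf750 cKO and 38.8 ± 8.4 FPKM in Control (SD, n = 3 each), a 1.9-fold difference with a log2 change of 0.93 (SE 0.16, 95% interval 0.56 to 1.30, limma adjusted p = 0.023). The call rests on single libraries: it ended without Znf750 cKO replicate 1 or 2 or Control replicate 1 or 2 (limma adjusted p = 0.10, 0.059, 0.0504 and 0.078), and with the replicate number as a block (limma adjusted p = 0.062), while the log2 change stayed between 0.76 and 0.95 in these fits. The difference between the log2 changes of Cldn7 and Cldn4 was not tested.

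The promoters of these members are shown because their transcripts rose, beside that of Cldn1, the most abundant member, which did not pass. Each run is the 250 bases before the annotated start in the RefSeq table (GRCm38.p6), written 5′ to 3′ along the gene's own strand, and capitals mark every match to the 5 motifs named in the next paragraph. Cldn7 lies on the plus strand (chr11:69964529-69964778), Cldn4 on the minus strand (chr5:134946935-134947184) and Cldn1 on the minus strand (chr16:26371840-26372089).
Cldn7: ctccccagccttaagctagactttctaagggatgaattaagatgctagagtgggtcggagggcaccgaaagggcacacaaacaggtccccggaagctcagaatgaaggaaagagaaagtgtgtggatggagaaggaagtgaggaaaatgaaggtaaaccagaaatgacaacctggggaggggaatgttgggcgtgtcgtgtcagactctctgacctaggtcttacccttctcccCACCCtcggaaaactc
Cldn4: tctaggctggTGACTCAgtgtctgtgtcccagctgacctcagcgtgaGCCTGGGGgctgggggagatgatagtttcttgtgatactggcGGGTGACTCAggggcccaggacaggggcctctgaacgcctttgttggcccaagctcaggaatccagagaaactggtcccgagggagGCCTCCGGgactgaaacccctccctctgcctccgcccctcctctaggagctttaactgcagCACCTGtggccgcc
Cldn1: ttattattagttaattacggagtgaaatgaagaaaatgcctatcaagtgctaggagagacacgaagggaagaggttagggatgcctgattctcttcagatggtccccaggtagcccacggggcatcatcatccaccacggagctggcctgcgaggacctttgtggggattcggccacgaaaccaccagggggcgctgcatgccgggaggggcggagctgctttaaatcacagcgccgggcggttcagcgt

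The 5 motifs were searched on both strands, with overlaps allowed. CCNNAGGC, found at regions bound by human ZNF750, is in 20.4% of the 32851 promoters of the table, and AACNGGTT, the core of grainyhead factor sites, in 1.79%. CAGGTG, an E-box bound by Snail and Zeb repressors, is in 17.2%, CACCC, a box bound by Kruppel-like factors, in 52%, and TGANTCA, the site of AP-1 factors, in 6.75%. The Cldn4 promoter held CCNNAGGC at 203 and 75 bases before the start and TGANTCA at 240 and 158 bases before it. It also held CAGGTG at 14 bases and CACCC at 161 bases, where CACCC shares bases with the nearer TGANTCA. The first Cldn7 promoter held 1 CACCC, at 16 bases, and 0 of the other motifs. A second Cldn7 start, at 69965421, had CAGGTG at 97 and 57 bases before it. The Cldn1 promoter held 0 of the 5 motifs in this window. Of the 12 promoters found for 8 members, 4 held CCNNAGGC (1 each of Cldn4 and Ocln and the overlapping windows of Cldn12, which hold the same site), 2 held TGANTCA (Cldn4 and F11r) and 0 held AACNGGTT. The table gave no entry for Cldn8 and Cldn23. These matches describe letters, not binding.

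Cldn1, the claudin that the epidermal barrier cannot do without, was the most abundant member in both groups and did not pass. It stood at 115.29, 102.60 and 101.99 FPKM in Znf750 cKO against 113.08, 80.76 and 101.86 FPKM in Control. The groups overlapped, and Control replicate 2 was the lowest library. The log2 change was 0.12 with a 95% interval of -0.20 to 0.44 (limma adjusted p = 0.67), and its sign turned without Control replicate 2 (log2 change -0.01).

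Cldn23 had the lowest change of the members. It stood at 7.33, 5.98 and 3.98 FPKM in Znf750 cKO against 9.50, 15.05 and 9.40 FPKM in Control. Every Znf750 cKO library was below every Control library, with Control replicate 2 above the rest. The means were 5.76 ± 1.69 FPKM in Znf750 cKO and 11.3 ± 3.2 FPKM in Control (SD, n = 3 each), a ratio of 0.509. The log2 change of -0.87 (95% interval -1.43 to -0.31, with no adjustment over genes) did not pass over all genes (limma adjusted p = 0.093), and it stayed negative and short of the threshold in all 16 alternatives. Control replicate 2 also had the highest summed level of the 11 granular layer genes (9280 FPKM), and its part in the Cldn23 level was not tested.

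Cldn12, a claudin known to take part in calcium uptake in mouse gut, stood at 7.37, 6.50 and 6.58 FPKM in Znf750 cKO against 6.03, 6.03 and 7.14 FPKM in Control. The groups overlapped (log2 change 0.08, 95% interval -0.21 to 0.37, limma adjusted p = 0.79). Cldn8, a claudin of the distal kidney tubule, stood at 3.76, 5.27 and 2.26 FPKM in Znf750 cKO against 3.12, 2.97 and 2.28 FPKM in Control. Its Znf750 cKO libraries spread most of the tested members, with a coefficient of variation of 40.1%, and the groups overlapped (log2 change 0.29, 95% interval -0.28 to 0.86, limma adjusted p = 0.56).

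Cldn6, a claudin of embryonic epithelia, and Cldn3, a claudin of tight simple epithelia, stayed under 1 FPKM in every library and were not tested. Cldn6 stood at 0.15, 0.33 and 0.25 FPKM in Znf750 cKO against 0.19, 0.24 and 0.10 FPKM in Control. Cldn3 stood at 0.12, 0.10 and 0.30 FPKM in Znf750 cKO against 0.24, 0.12 and 0.07 FPKM in Control. At the estimated depths the Cldn3 values correspond to about 4.93, 3.09 and 7.97 reads in Znf750 cKO and 7.88, 2.98 and 1.90 reads in Control, so a difference was not detectable at this depth. Cldn3 shares exon sequence with Wbscr25 on the opposite strand, and with the strand of the reads not stated their reads cannot be told apart.

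Ocln, which encodes occludin, did not pass. It stood at 11.17, 11.40 and 8.39 FPKM in Znf750 cKO against 10.37, 11.22 and 13.85 FPKM in Control. Znf750 cKO replicate 3 was the lowest and Control replicate 3 the highest, and the others lay between (log2 change -0.18, 95% interval -0.55 to 0.19, limma adjusted p = 0.57). Without replicate 3 of both groups the log2 change was 0.06.

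F11r stood at 67.68, 64.32 and 71.23 FPKM in Znf750 cKO against 58.09, 46.85 and 51.07 FPKM in Control. Every Znf750 cKO library was above every Control library, by a ratio of means of 1.3. The log2 change was 0.38 (95% interval 0.13 to 0.63, with no adjustment over genes), which did not pass over all genes (limma adjusted p = 0.099). F11r is also made by leukocytes and platelets. Several leukocyte markers were lower in Znf750 cKO, and platelet markers did not move together. Of 10 immune marker genes, all 7 that were tested fell, among them Tyrobp, Cd52, Ctss and Lyz2, against 3.1% of all tested genes. Lyz2 and H2-Aa passed the filter through Control alone, since both stayed under 1 FPKM in every Znf750 cKO library. The 10 genes summed to 13.2 to 17.7 FPKM in Znf750 cKO against 102 to 162 FPKM in Control. Of the 7 that fell, Ptprc lost its call without Znf750 cKO replicate 1 or 2 or Control replicate 3 (limma adjusted p 0.056 to 0.085). The other 6 passed whichever library was left out. The markers Cd207 and Trdc stayed under 1 FPKM in every library and overlapped between the groups. Cd3e, also not tested, overlapped too, at 0.22 to 1.36 FPKM in Znf750 cKO and 0.42 to 1.24 FPKM in Control. In bulk RNA, fewer cells of a type and less RNA per cell cannot be told apart. Of 7 red cell and platelet genes 5 were tested, of which Hba-a2 and Pf4 fell. The list summed to 14.5 to 18.1 FPKM in Znf750 cKO against 30.6 to 64.1 FPKM in Control. In it the red cell gene Hba-a2 stood at 3.05 to 3.86 FPKM in Znf750 cKO against 11.61 to 20.39 FPKM in Control. The platelet gene Itga2b overlapped between the groups and did not pass (log2 change -0.09, limma adjusted p = 0.88). Pf4 passed under 0 of 3 other scalings, not under the block (limma adjusted p = 0.085), and of the left-out libraries only without Znf750 cKO replicate 3. The part of these cells in the F11r level was not tested.

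**Figure D2:**
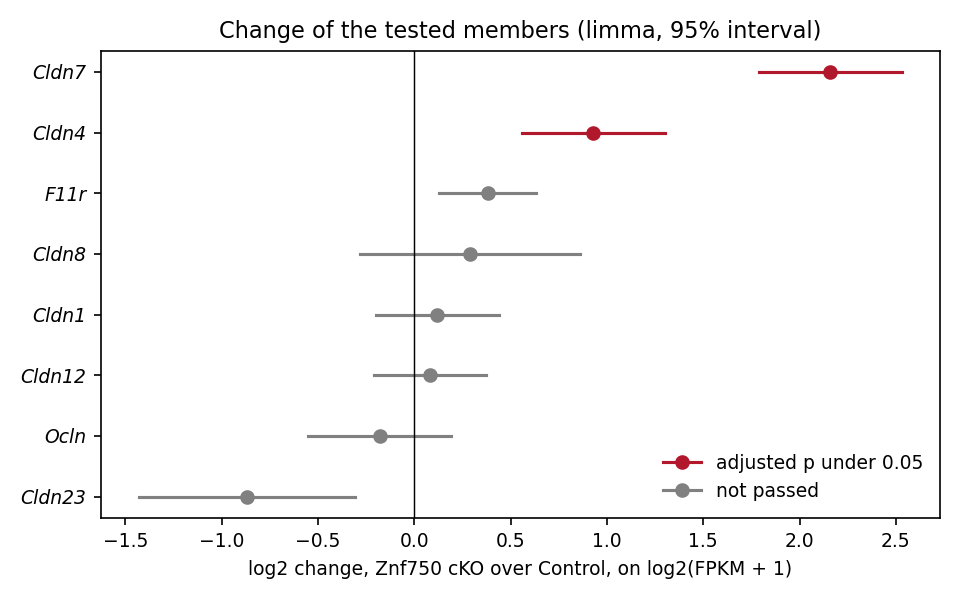
Log2 change of the 8 tested members, Znf750 cKO over Control, on log2(FPKM + 1), with the 95% interval of the limma fit before adjustment over genes. Cldn7 at 2.16 and Cldn4 at 0.93, in red, passed at an adjusted p under 0.05, and the other members, in grey, lie between -0.87 and 0.38.

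The order of the levels differed between the groups in its middle part. In Znf750 cKO it ran Cldn1, Cldn4, F11r, Ocln, Cldn7, Cldn12, Cldn23, Cldn8, Cldn6 and Cldn3. The ranges of the 3 libraries overlapped between Cldn4 and F11r, Ocln and Cldn7, Cldn12 and Cldn23, Cldn23 and Cldn8, and Cldn6 and Cldn3, and the other neighbours in this order lay apart. In Control it ran Cldn1, F11r, Cldn4, Ocln, Cldn23, Cldn12, Cldn8, Cldn7, Cldn6 and Cldn3, where the ranges of F11r and Cldn4, of Ocln and Cldn23 and of Cldn6 and Cldn3 overlapped and the other neighbours lay apart. Cldn7 thus stood above Cldn12, Cldn23 and Cldn8 in Znf750 cKO and below all of them in Control.

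The makeup of the claudin transcripts was then compared as the share of each claudin in the summed FPKM of the 8 claudin members, a value that does not depend on how libraries are scaled. Cldn4 made up 36.2%, 35.7% and 35.7% in Znf750 cKO against 18.5%, 27.0% and 27.8% in Control. Cldn1 made up 51.6%, 51.0% and 53.1% in Znf750 cKO against 69.3%, 55.3% and 60.4% in Control. Cldn4 was therefore a larger and Cldn1 a smaller share in each Znf750 cKO library than in any Control library, and the Znf750 cKO libraries lay close together. The difference in the mean share of Cldn1 was -9.73 percentage points, and -5.90 without Control replicate 1.

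Cldn7 made up 3.80%, 4.21% and 4.15% in Znf750 cKO against 0.509%, 1.01% and 0.599% in Control. Cldn23 made up 3.28%, 2.98% and 2.07% in Znf750 cKO against 5.82%, 10.3% and 5.57% in Control. The groups did not overlap in either, nor in Cldn12, which averaged 3.32% in Znf750 cKO and 4.02% in Control. For these 5 claudins the exact two-sided permutation test over libraries gave p = 0.10, the smallest that 3 against 3 allows, and Cldn3, Cldn6 and Cldn8 overlapped (exact permutation p = 1, 0.8 and 1). The 8 tests together give no adjusted p under that floor. The shares sum to 100% within a library, so a larger share of 1 claudin lowers the others.

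**Figure D3:**
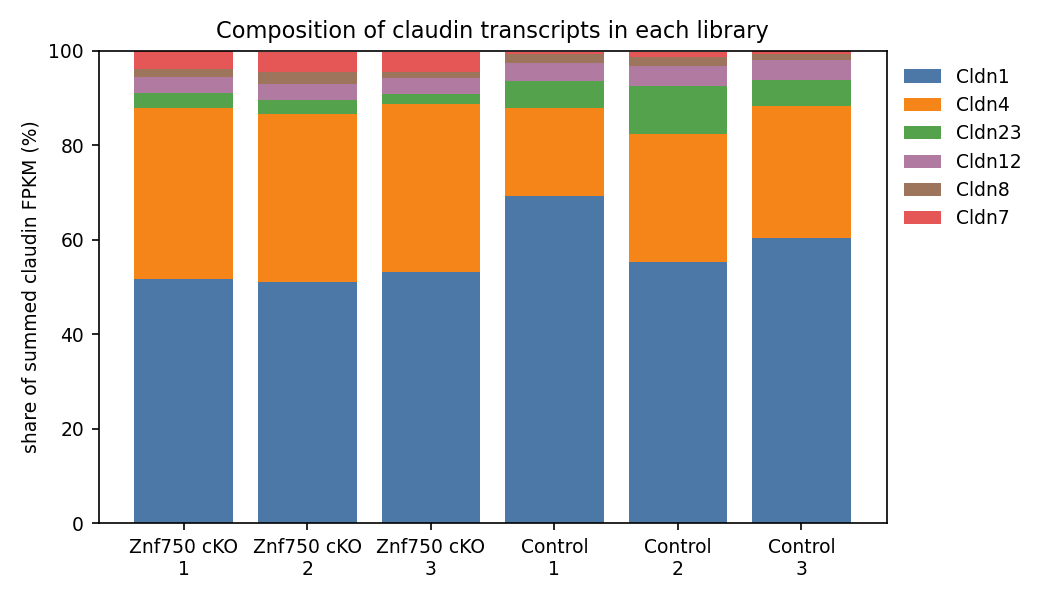
Share of each claudin in the summed FPKM of the 8 claudin members, as stacked bars from 0 to 100% for each library, with Cldn3 and Cldn6 left out of the drawing because they hold under 0.2% each. Cldn4 takes 35.7% to 36.2% in the Znf750 cKO bars and 18.5% to 27.8% in the Control bars.

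The summed claudin level was 223.5, 201.0 and 191.9 FPKM in Znf750 cKO against 163.2, 146.1 and 168.7 FPKM in Control. The groups did not overlap (205.5 ± 16.2 FPKM in Znf750 cKO and 159.3 ± 11.8 FPKM in Control, SD, n = 3 each, exact permutation p = 0.10). The level of Cldn4 relative to Cldn1 was 0.691 ± 0.016 in Znf750 cKO and 0.405 ± 0.120 in Control (SD, n = 3 each, exact permutation p = 0.10). The sum and this ratio include Cldn4, at means of 73.8 FPKM in Znf750 cKO and 38.8 FPKM in Control. They are therefore not results separate from its rise. The members held 97.7% to 98.9% of the summed FPKM of all 34 claudin genes of the table. Of these genes 26 stayed under 1 FPKM in every library, of which 11 were listed at 0 throughout.

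Among the other claudins, Cldn9 was not tested, since it reached 1 FPKM in 1 library only. It stood at 1.33, 0.62 and 0.49 FPKM in Znf750 cKO and was listed at 0, 0.17 and 0 FPKM in Control, and it lies 138 bases from Cldn6 on the opposite strand. Cldn5, the claudin of blood vessels, stayed at or under 0.11 FPKM in all libraries, and of 9 endothelial markers only Pecam1 and Egfl7 were tested, neither of which passed.

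The members are scattered over several chromosomes (coordinates of GENCODE M21, GRCm38). Cldn4 (ENSMUSG00000047501, chromosome 5, 134945119 to 134946934, minus strand) and Cldn3 (chromosome 5, 134986214 to 134987472, plus strand) each have 1 exon and lie 39280 bases apart. Cldn4 was at 68.59 to 80.93 FPKM in Znf750 cKO, where Cldn3 was at 0.10 to 0.30 FPKM. Cldn1 and Cldn8 share chromosome 16, at 26356642 to 26371841 and 88560828 to 88563183, both on the minus strand. Cldn12 is on chromosome 5 (5489537 to 5514958, minus strand), Cldn7 on chromosome 11 (ENSMUSG00000018569, 69964779 to 69967885, plus strand), Cldn6 on chromosome 17 (23679249 to 23682446, plus strand) and Cldn23 on chromosome 8 (35824712 to 35826559, minus strand). Ocln is on chromosome 13 (100496507 to 100552718, minus strand) and F11r on chromosome 1 (171437535 to 171464603, plus strand). Apart from Cldn3, no member overlaps another annotated gene. No stretch of 100 bases, the read length, in any member's transcripts occurs on the same strand in a transcript of another gene of that annotation.

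The nearest tested gene on each side of every member was read from the same fit. These 19 genes included Cldn4 itself, beside Cldn3. Of the 19, 2 rose and 0 fell, where 1.11% of all tested genes rose and 3.1% fell. The other that rose was Mfhas1, 145263 bases from Cldn23, with 14.5 ± 0.7 FPKM in Znf750 cKO and 10.1 ± 0.5 FPKM in Control (SD, n = 3 each, log2 change 0.48, limma adjusted p = 0.049, but 0.060 under the block and 0.083 to 0.15 without any 1 library). Elp5, an elongator subunit 337 bases beyond Cldn7, stood at 35.7 ± 3.9 FPKM in Znf750 cKO and 32.7 ± 5.6 FPKM in Control (SD, n = 3 each, log2 change 0.13, limma adjusted p = 0.67). Mettl27, 2482 bases beyond the end of Cldn4, did not pass either (log2 change -0.32, limma adjusted p = 0.46). Marveld2, the tricellulin gene 43239 bases from Ocln, stood at 7.20, 7.86 and 5.80 FPKM in Znf750 cKO against 4.51, 5.48 and 5.11 FPKM in Control (log2 change 0.39, limma adjusted p = 0.18).

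In 4 lists of other junction genes 4 of 57 tested genes passed, 7.02%, against 4.22% of all tested genes, and 3 of the 4 rose. Over all tested genes 1.11% rose and 3.1% fell, the shares to set beside the counts of each list. Of 12 further membrane proteins of tight junctions 6 were tested, of which 1 rose and 0 fell, with a median log2 change of 0.32. The one was Crb3, an apical polarity protein, with 25.19, 23.69 and 27.84 FPKM in Znf750 cKO against 15.22, 16.38 and 17.98 FPKM in Control. Its groups did not overlap (log2 change 0.60, SE 0.11, limma adjusted p = 0.030, with the block 0.043). Of the left-out libraries only Znf750 cKO replicate 2 let the call stand, and without each of the other 5 the adjusted p of limma was 0.057 to 0.11.

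Of 22 tested plaque and polarity genes, 0 rose and 0 fell in limma. An unadjusted p under 0.05 was found in 3 of them, against 21.3% of all tested genes. Their median log2 change was 0.00, and 11 of the 22 were positive. The most abundant was Ybx3, at 376.6 FPKM in Znf750 cKO and 353.4 FPKM in Control (limma adjusted p = 0.66). Tjp1, for ZO-1, had a log2 change of 0.05 (limma adjusted p = 0.92). Tjp3, for ZO-3, came nearest to the threshold, at 6.73, 9.19 and 6.45 FPKM in Znf750 cKO against 12.46, 11.37 and 12.65 FPKM in Control (log2 change -0.65, limma adjusted p = 0.053); Tjp1 and Tjp3 were named after their values were seen.

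Of 18 tested partners and regulators of claudins, 1 rose and 1 fell, with a median log2 change of 0.00. An unadjusted limma p under 0.05 was found in 9 of the 18, 4 of them negative, against 21.3% of all tested genes. The groups did not overlap in 10, against 28% of all tested genes. Klf4 came near the threshold, at 254.90, 239.83 and 245.61 FPKM in Znf750 cKO against 149.42, 159.15 and 198.75 FPKM in Control (limma adjusted p = 0.054). Grhl3, a grainyhead factor of the forming barrier, stood at 40.62, 35.32 and 32.90 FPKM in Znf750 cKO against 18.55, 19.78 and 20.07 FPKM in Control. It rose (log2 change 0.86, SE 0.11, limma adjusted p = 0.0087) and passed whichever library was left out. Prss8, a membrane protease needed for epidermal tight junctions in mice, stood at 13.79, 11.94 and 15.36 FPKM in Znf750 cKO against 24.91, 33.06 and 24.24 FPKM in Control. It fell (log2 change -0.94, SE 0.15, limma adjusted p = 0.018, under the block 0.055). The call ended without Znf750 cKO replicate 1 or Control replicate 1 or 2 (limma adjusted p = 0.079, 0.052 and 0.054). Epcam, which binds claudin 7, had a log2 change of -0.03 and did not pass (limma adjusted p = 0.91).

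Of 11 tested genes of adherens junctions, 1 rose and 0 fell. That was the cadherin Cdh3, at 62.7 ± 4.4 FPKM in Znf750 cKO and 40.9 ± 6.3 FPKM in Control (SD, n = 3 each, log2 change 0.61, limma adjusted p = 0.043). It did not pass once any 1 of the 6 libraries was left out (limma adjusted p 0.063 to 0.16), and it passed under 1 of 3 other scalings. Cdh1, the main epithelial cadherin, stood at 176.5 FPKM in Znf750 cKO and 180.6 FPKM in Control (limma adjusted p = 0.91).

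**Figure D4:**
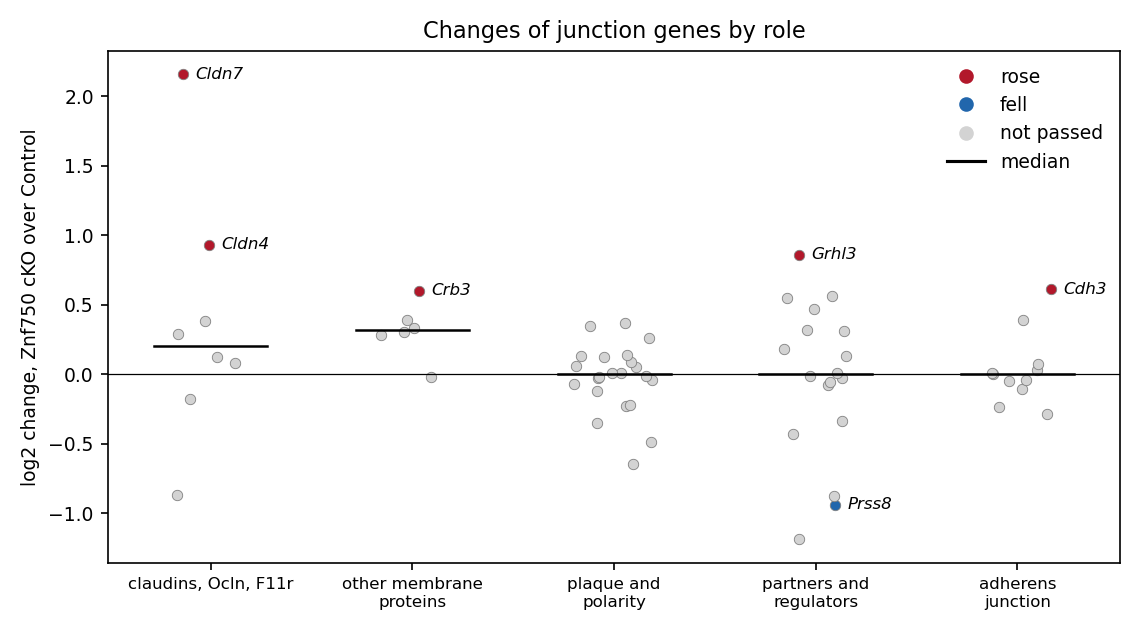
Log2 change of every tested gene in 5 lists of junction genes, Znf750 cKO over Control, with a black line at each list's median, red for genes that rose, blue for the gene that fell and grey for those that did not pass. Cldn7 lies at 2.16, above all other genes drawn, and the 22 plaque and polarity genes hold no called gene.

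Cldn7 and Cldn4 are known from simple epithelia, and genes of periderm and such epithelia were read beside them. Of 12 genes of periderm and simple epithelium 9 were tested, of which Krt8, Krt18 and Grhl3 rose and 0 fell. Over all tested genes 1.11% rose and 3.1% fell. Positive log2 changes were found in 8 of the 9, against 37.8% of all tested genes. The median was 0.42 in this list and -0.08 over all tested genes. The list summed to 2030 to 2390 FPKM in Znf750 cKO against 1560 to 1930 FPKM in Control. Most of that sum was Krt17 and Sfn, which overlapped between the groups and did not pass (limma adjusted p = 0.85 and 0.21). The sum includes Krt8, so it does not show that the rest of the list was higher. Krt8 stood at 201.4 to 282.14 FPKM in Znf750 cKO against 3.13 to 3.65 FPKM in Control, and Krt18, its usual partner keratin, at 2.90 to 4.55 FPKM in Znf750 cKO against 0.70 to 1.39 FPKM in Control. The Krt18 call stood without Znf750 cKO replicate 3 and ended without each of the other 5 libraries (limma adjusted p 0.051 to 0.098). Of 13 Merkel cell markers, Krt8 and Krt18 rose and Chga fell among the 4 tested, and the list summed to 210 to 290 FPKM in Znf750 cKO against 21.1 to 29.7 FPKM in Control. Without Krt8 the other 12 summed to 8.14 to 8.56 FPKM in Znf750 cKO against 18.0 to 26.1 FPKM in Control. Chga made up most of this Control sum, at 12.73 to 21.63 FPKM, and stood at 0.92 to 1.32 FPKM in Znf750 cKO. Of the rest, Krt18 was higher and Krt20 lower in each Znf750 cKO library than in any Control library, and the others overlapped. The Merkel cell factors Atoh1 and Sox2 stayed under 1 FPKM in every library, as did 8 of the 13 markers in all, and 0 was listed at 0 throughout. Among the other keratins of the first list, Krt6a was higher in each Znf750 cKO library than in any Control library. It stood at 38.27, 34.02 and 105.12 FPKM in Znf750 cKO against 15.57, 21.33 and 16.00 FPKM in Control and did not pass (limma adjusted p = 0.16). Krt7 and Krt19 overlapped and did not pass (limma adjusted p = 0.48 and 0.44). Krt13 stood at 0.16, 0.22 and 0.43 FPKM in Znf750 cKO against 0.66, 1.82 and 0.91 FPKM in Control and was not tested, like Krt4 and Gabrp. Gabrp was also lower in each Znf750 cKO library (0.07 to 0.16 FPKM) than in any Control library (0.74 to 0.97 FPKM). The part of such cells in the levels of Cldn7 and Cldn4 was not tested.

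The genes most like Cldn7 and Cldn4 were found by the root mean square distance of log2(FPKM + 1) values, centred on each gene's mean over the 6 libraries, among 11930 tested genes with a mean of at least 2 FPKM. For Cldn7 they were Kalrn, Slc15a3, a lysosomal transporter, and 1700020L24Rik, at distances of 0.125, 0.18 and 0.205. Kalrn, for example, stood at 15.94, 17.25 and 14.36 FPKM in Znf750 cKO against 2.09, 4.37 and 2.90 FPKM in Control. For Cldn4 they were Serpinb2, a serpin of keratinocytes, Trp53inp2 and Pcdh7, a protocadherin, at distances of 0.127, 0.131 and 0.148. Serpinb2 stood at 162.65, 144.51 and 127.59 FPKM in Znf750 cKO against 64.11, 68.74 and 77.08 FPKM in Control.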

How the data were processed

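Messenger RNA of 6 epidermal libraries was compared, 3 labelled Znf750 cKO and 3 labelled Control. The authors deposited FPKM values, per the file headers, for 55487 Ensembl genes in each table. RSEM 1.2.28, STAR 2.5.2a, Trim Galore 0.4.5, cutadapt 1.15, DESeq2, MultiQC 1.0 and FastQC 0.11.8 are named, without roles, per the submitters' processing notes, as are the builds GRCm38 and mm10. The release of the annotation is not stated. Per the labels' protocols, poly(A) RNA was read as 100-nucleotide single reads, and strand is not stated.

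Genes with at least 1 FPKM in at least 3 libraries were tested with limma 3.58.1 (trend and robust variances, statmod 1.5.0, R 4.3.3) on values of log2(FPKM + 1), with no term but the group and with Benjamini-Hochberg adjustment over all 13688 genes. A gene past an adjusted p of 0.05 is said to have risen or fallen. The fit was tested on simulated data. Shares of the claudin pool were compared with exact permutation tests. The members and lists were chosen with earlier results of these data known. Every member is named; the rule for each other list was to name up to 4 called genes with the smallest p or, where none was called, the most abundant gene, along with neighbouring genes and those most like Cldn7 and Cldn4. Other genes, such as Epcam, Klf4, Cdh1 and further cell type markers, were chosen after their values were seen.

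Libraries with the same replicate number correlated across genes at 0.31, 0.17 and 0.48 after group means were taken off, each over 0.1, so a second limma fit took the replicate number as a blocking term. Pairs with different numbers correlated at -0.39 to 0.24. The highest of these, Znf750 cKO replicate 2 with Control replicate 1, was above the 0.17 of the pair numbered 2. The pairing rests on these correlations, which do not settle it, because no label explains the numbers. Read depth was estimated as the step that makes FPKM times transcript length (less 99 bases) whole, for genes with 1 short transcript. Within 0.1 read of a whole number lay 71.6% to 79.2% of such values per library, against a median of 12.0% to 14.5% at other depths. These depths entered no test. Of the gene identifiers 55141 had a symbol in the reference table. Figures were drawn in Python 3.11.15 (matplotlib 3.10.9). Alternatives covered pseudocounts, filters, 3 scalings, the block, the variance model and left-out libraries.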

Additional observations from a re-analysis of the deposited data

How the results depend on the processing

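Cldn7 rose under all 16 alternatives run, with log2 changes from 2.06 to 2.84 and limma adjusted p from 0.00023 to 0.014. Cldn4 kept its direction in all 16, with log2 changes from 0.76 to 1.12, but missed the threshold in 6: with the replicate number as a block (log2 change 0.93, limma adjusted p = 0.062), with no filter (0.93, adjusted p = 0.11, where 35621 genes were tested) and without Znf750 cKO replicate 1 or 2 or Control replicate 1 or 2. Its log2 changes without 1 library ran from 0.76 to 1.07. The count of members that rose was therefore 1 with the block and with no filter, and 1 to 2 without 1 library. The sign turned, with no call either way, for Cldn1 without Control replicate 2 (log2 change -0.012, and up to 0.23 without another library) and for Ocln without replicate 3 of both groups (0.060). Without 1 library the difference in pool share ran from -12.9 to -5.90 percentage points for Cldn1, 8.50 to 13.1 for Cldn4 and 3.25 to 3.50 for Cldn7, with the outer value nearest 0 without Control replicate 1 in each. These moves were smaller than the SD of the more variable group. For Cldn1 without Control replicate 1 or 2, and for Cldn4 without any 1 Control library, they were larger than the Znf750 cKO SD. The block changed no other member's call, and Cldn8 was not tested at a filter of 5 FPKM.

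Over all genes 577 were called, 152 up and 425 down. The counts were 85 (31 up and 54 down) with no filter, 279 (94 and 185) with upper-quartile scaling, and 136 up and 256 down with the block. They were 95 up without replicate 3 of both groups, and 100 to 356 (34 to 110 up and 66 to 259 down) without 1 library. Scaling by median ratios gave 215 up and 307 down. The cause of these differences was not tested. Groups of 3 libraries and FPKM printed to the second decimal limit what can be seen of Cldn3 and Cldn6, and with no filter neither passed (limma adjusted p = 0.94 and 0.85).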
